A study of Mus musculus with 42 samples.

Results

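Imprinted genes are expressed mainly from the allele inherited from 1 parent. A list of 48 mouse imprinted genes was followed through the differentiation of embryonic stem cells (ESCs) towards Anterior Definitive Endoderm (ADE), and 47 of them could be measured. Each gene was represented by its brightest probe over all 42 arrays among the probes whose annotated transcript belonged to it, so that 47 of the 21384 named genes on the array are described. Only *Rian* had no matching probe. Of the members, 34 were above background on all 42 arrays, as marked by the scanner software, and 9 were above background on 0 arrays of at least 1 group.

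The ESCs carried reporters knocked in to *Gsc* (GFP, G) and *Hhex* (RedStar, H), the former a gene of the primitive streak and the latter of definitive endoderm. Untreated RNA came from ESCs, from unsorted d2 cultures and from 9 populations sorted on the reporters, namely d3 G- and G+, d4 G- and G+, d5 G-, Glow and Ghigh, and d6 G+H- and G+H+. In a second series EPZ6438, an inhibitor of EZH2, the catalytic subunit of Polycomb Repressive Complex 2 (PRC2), was used at 2.5 µM, and all of its arrays were of day 6. Control cultures had DMSO, the solvent, as ESCs and during differentiation. ADE_EPZ cultures had DMSO as ESCs and EPZ6438 during differentiation, and ES_EPZ cultures had EPZ6438 as ESCs and DMSO afterwards. The labels of this series name no sort. Each of the 14 groups had 3 arrays of total RNA on Agilent one-colour arrays.

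Imprints are marks, most often DNA methylation at CpG sites of an imprinting control region, that are set in the germ line and kept on 1 parental chromosome through development. Imprinted genes lie in clusters in which 1 control region governs several genes, and many act on growth, placenta and metabolism. PRC2 places H3K27me3, a repressive histone mark, and for a few genes, *Sfmbt2*, *Gab1*, *Smoc1* and *Slc38a4* among them, H3K27me3 from the oocyte takes the place of DNA methylation. The arrays read RNA of both alleles together, so the levels below say nothing on which allele was expressed. Fewer cells of a type and less RNA per cell cannot be told apart in them either.

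Sequences upstream of 6 members are shown, those of *Peg3*, *Usp29* and *Zim1* because these neighbours had similar profiles, and those of *Dio3*, *Grb10* and *Magel2* because these genes were called in both EPZ6438 regimens. They are RefSeq sequences of GRCm38.p6, 5′ to 3′ on the strand of the gene, with each CpG, the site of DNA methylation, in capitals. The starts of *Peg3* and *Usp29* face away from each other, and the 163 bases between them, chr7:6730420-6730582, are printed on the plus strand. The others are the 250 bases before the most upstream start: *Zim1*, chr7:6696433-6696682 on the minus strand, *Dio3*, chr12:110278980-110279229 on the plus strand, *Grb10*, chr11:12037421-12037670 on the minus strand, and *Magel2*, chr7:62376729-62376978 on the plus strand.
Peg3-Usp29: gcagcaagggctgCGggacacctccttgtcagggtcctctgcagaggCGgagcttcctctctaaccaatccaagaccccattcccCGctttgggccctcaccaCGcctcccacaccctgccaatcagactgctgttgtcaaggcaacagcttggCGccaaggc
Zim1: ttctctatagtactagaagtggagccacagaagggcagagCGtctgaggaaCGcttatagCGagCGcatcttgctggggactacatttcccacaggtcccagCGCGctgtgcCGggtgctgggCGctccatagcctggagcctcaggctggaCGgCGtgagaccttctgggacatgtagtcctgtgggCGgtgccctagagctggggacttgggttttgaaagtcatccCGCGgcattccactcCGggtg
Dio3: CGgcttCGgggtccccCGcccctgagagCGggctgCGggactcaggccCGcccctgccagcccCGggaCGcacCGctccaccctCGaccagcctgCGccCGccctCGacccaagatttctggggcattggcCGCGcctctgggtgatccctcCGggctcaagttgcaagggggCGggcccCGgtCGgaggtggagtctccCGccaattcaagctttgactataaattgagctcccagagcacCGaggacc
Grb10: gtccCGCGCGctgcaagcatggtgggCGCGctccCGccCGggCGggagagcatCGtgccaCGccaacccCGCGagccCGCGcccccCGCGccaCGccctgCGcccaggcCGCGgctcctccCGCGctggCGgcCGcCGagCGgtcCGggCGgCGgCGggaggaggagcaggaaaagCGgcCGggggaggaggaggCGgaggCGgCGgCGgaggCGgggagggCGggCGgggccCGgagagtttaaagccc
Magel2: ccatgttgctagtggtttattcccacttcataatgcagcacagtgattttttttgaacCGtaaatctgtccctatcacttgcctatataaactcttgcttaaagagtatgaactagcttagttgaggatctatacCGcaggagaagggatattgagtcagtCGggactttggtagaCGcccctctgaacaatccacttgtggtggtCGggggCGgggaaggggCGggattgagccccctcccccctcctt

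These windows differed widely in CpG. The *Grb10* window held 40 CpG, a number reached by 1.31% of the 32851 upstream windows of 250 bases in the table. The *Dio3* window held 21 (reached by 16.3%), the *Zim1* window 14 (29.4%) and the *Magel2* window 7 (46.3%). Over the 40 listed members with such a window, 39 of them measured, the highest CpG number per gene ran from 0 to 40 with a median of 13. The median of all windows was 6, but there no highest per gene was taken, so these medians are not measured alike. The letters TGCCGC, the core bound by ZFP57, a zinc finger protein that keeps imprints, were searched on both strands. They occurred upstream of 7 members, *Calcr*, *Copg2*, *Meg3*, *Mest*, *Plagl1*, *Slc22a2* and *Zim1*, in 13.1% of the 61 member windows and in 8.68% of all windows. The 8 member windows with these letters include 2 of *Mest* that overlap almost fully, chr6:30737800-30738049 and chr6:30737803-30738052, and both were counted.

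About as many imprinted genes were called as changed during differentiation as were not, and the called ones moved in both directions. A gene was called where the limma test gave an adjusted p of at most 0.01 and the log2 fold change was at least 1.5 in either direction. By this rule 23 of 47 members (48.9%) were called in at least 1 of the 10 comparisons with ESCs, beside 16.6% of all genes. Of these, 12 were only higher, 9 were only lower, and *Phlda2* and *Ddc* were higher in some populations and lower in others. A member not called was not shown to be unchanged. With an adjusted p of at most 0.05 and no fold threshold, 35 members passed. All 4 listed H3K27me3-dependent genes and all 3 genes of the *Peg3* domain were among the 23, and 0 of the 2 genes of the *H19*-*Igf2* domain. The members were chosen with earlier results of these data known. Shares of members set beside those of all genes, here and below, are therefore no test of imprinted genes as a set.

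More members were called in the GSC-positive populations than in d2 and GSC-negative cells, as was the case among all genes. In d2 cells 1 member was called, *Nnat*, which was lower, beside 1.70% of all genes. In d3 G- cells 5 members were called (2.39% of all genes), in d4 G- cells 4 (3.18%) and in d5 G- cells 4 (4.29%). The GSC-positive populations had 11 members called in d3 G+ (6.53%), 13 in d4 G+ (7.34%), 10 in d5 Glow (7.66%) and 9 in d5 Ghigh (8.09%). In each of the d6 populations 13 members were called, beside 10.1% of all genes for G+H- cells and 11.0% for G+H+ cells. In d6 G+H+ 8 were called higher and 5 lower, the median change of the members was 0.20 on the log2 scale beside 0 for all genes, and 66.0% of the members had a positive change beside 49.9% of all genes. Over the 10 comparisons the median of the members ran from -0.18 in d3 G- to 0.20. The 10 comparisons share the ESC arrays. No slide held both d5 Glow and ESC arrays, so the 10 d5 Glow calls could not be compared within a slide. All 10 were kept with slide as a fixed block, which links these slides only through other groups. The labels do not say what separates the replicates, and the study describes its replicate experiments as independent.

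**Figure D1:**
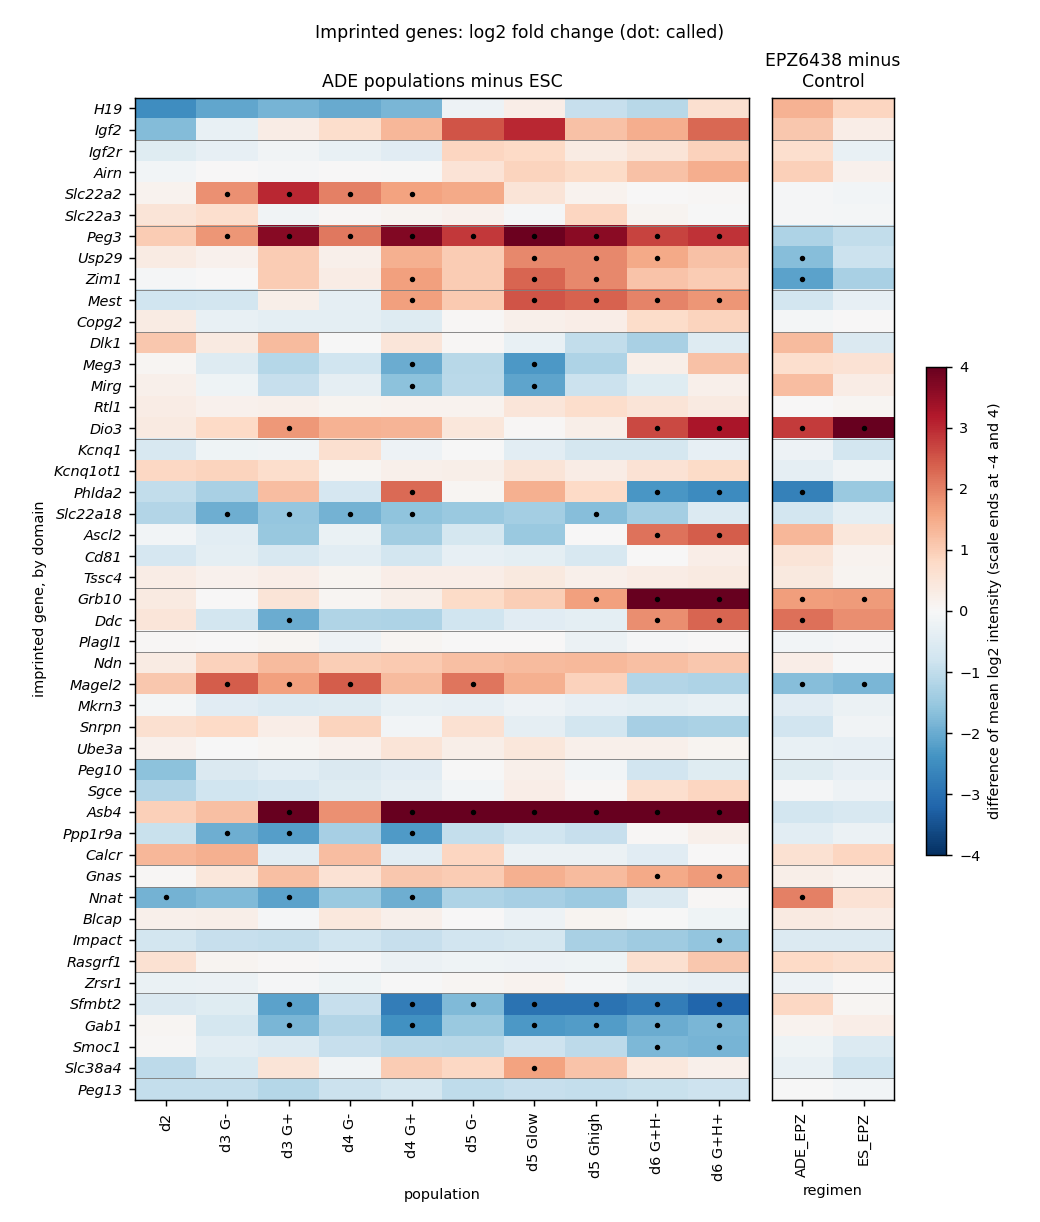
Log2 fold change of the 47 imprinted genes (rows) against ESCs for each untreated population, and for the EPZ6438 comparisons (columns), with a dot where the gene was called. The colour scale ends at -4 and 4. *Peg3* was called higher in every population from d3 on and *Asb4* in 7 populations. *Sfmbt2* and *Gab1* were called lower in all GSC-positive ones, and *Sfmbt2* also in d5 G-. With EPZ6438 8 genes were called in ADE_EPZ and 3 in ES_EPZ.

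Genes of the *Peg3* domain were higher in differentiated cells. *Peg3* and *Usp29* are expressed from the paternal allele and encode a zinc finger protein and a protein related to deubiquitinating enzymes, and *Zim1* is a maternally expressed zinc finger gene beside them. *Peg3* read 8.59, 8.58 and 9.07 (log2 intensity) on the ESC arrays and 12.74, 12.54 and 12.75 in d5 Glow, where its mean was highest. None of these overlapped, and the 3.93 ± 0.30 difference (log2 fold change ± SE, limma adjusted p = 3.07e-12) was followed by lower values of 11.42, 11.72 and 11.73 in d6 G+H+. *Peg3* was called in every comparison with ESCs except that of d2.

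*Usp29* and *Zim1* were at background in ESCs, with 0 of 3 arrays above it. *Usp29* read 5.02, 4.36 and 4.92 in ESCs and 6.81, 6.79 and 6.49 in d5 Ghigh, at least 3.28-fold higher (adjusted p = 4.03e-07). Such a bound uses the deposited values and sets the brighter group against, on each ESC array, the dimmest signal above background or the probe's own value where that was higher. With a larger normexp offset or no background correction the *Usp29* call in d5 Ghigh was lost, with 1.10 as the smallest log2 change. *Zim1* read 5.02, 4.67 and 4.68 in ESCs and 7.60, 7.39 and 6.35 in d5 Glow, at least 4.38-fold higher (adjusted p = 8.26e-06), and the arrays did not overlap. The larger offset ended this call too (1.43). Over the means of the 11 untreated groups *Usp29* and *Zim1* had a Pearson correlation of 0.96, *Peg3* and *Zim1* of 0.88 and *Peg3* and *Usp29* of 0.85. With the EPZ6438 groups added (14 means) these were 0.97, 0.66 and 0.55. Group means are not independent, since arrays of different groups share slides.

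**Figure D2:**
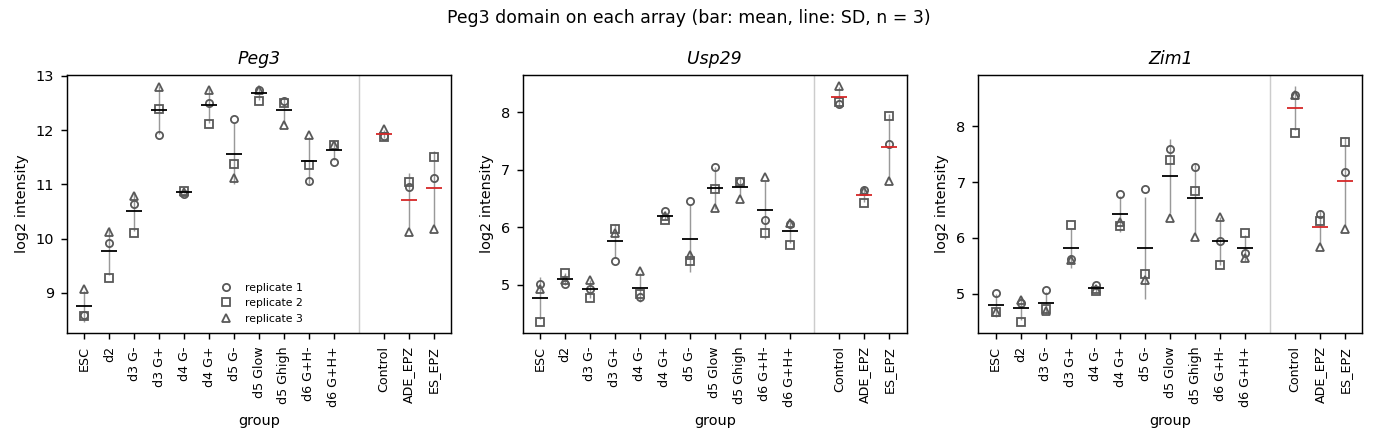
Log2 intensity of the *Peg3* domain genes on each array (points, with the mean as a bar and the SD of 3 arrays as a line) by group, with the untreated groups left of the grey line and the EPZ6438 series right of it. All 3 genes had their highest untreated means at d5. *Usp29* and *Zim1*, at background in ESCs, were above it on every d3 G+ array, and both were lower in ADE_EPZ than in Control.

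*Mest*, a paternally expressed gene for a protein of the hydrolase fold family, was first called in d4 G+, while *Peg3* was called from d3 on. Whether it rose later was not tested. The d5 Glow arrays of *Mest* read 13.02, 12.79 and 12.82 against 11.83, 9.42 and 9.85 in ESCs, a difference of 2.51 ± 0.40 (adjusted p = 1.02e-05). One ESC array stood above the other two by about the size of the later change, and in d4 G+ (12.11, 11.38 and 12.54) the groups overlapped. The call in d4 G+ (1.65, adjusted p = 0.00248) was lost without d4 G+ replicate 1 or 3 and without ESC replicate 2 or 3, and the difference had opposite signs, -0.45 and 2.69, on the 2 slides that held both groups.

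In the *Peg10* domain *Asb4* had, by its brightest probe, the largest change of all members and *Ppp1r9a* moved the other way. *Asb4* encodes a substrate receptor of a ubiquitin ligase and is maternally expressed. It read 5.09, 5.35 and 5.15 in ESCs, with 0 arrays above background, and 12.47, 11.85 and 9.98 in d5 Ghigh, at least 75.5-fold higher by these values (adjusted p = 7.75e-11). Over the alternatives this log2 change ran from 5.22 to 7.55. All 7 populations from d3 G+, d4 G+ and d5 to d6 were called, from at least 16.2-fold in d5 G- upwards, while d2, d3 G- and d4 G- had group means of 6.16, 6.40 and 7.02. The d5 G- change was as low as 3.10 on the log2 scale under the alternatives, and its call was lost with only the compared groups in the fit. A dimmer second probe of *Asb4*, above background on 36 of 42 arrays, was not called in d6 G+H+ against ESCs (1.27, adjusted p = 0.00168, beside 5.88 by the brightest) or in d4 G+ against G- (0.75, adjusted p = 0.224). *Ppp1r9a*, which encodes the actin-binding protein neurabin, read 10.33, 10.39 and 10.56 in ESCs and 8.29, 8.11 and 8.09 in d4 G+, and fell by 2.26 ± 0.41 (adjusted p = 6.03e-05). By d6 G+H+ it was back at 10.57, 10.41 and 10.86, which overlapped with ESCs. Its call in d3 G- rested on replicate 1, which read 6.50 beside 9.60 and 9.30, and was lost without it. *Peg10*, *Sgce* and *Calcr* were called in 0 comparisons.

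In the *Dlk1*-*Dio3* domain the maternally expressed noncoding RNAs *Meg3* and *Mirg* dipped together, and *Dio3*, at the far end, rose at d6. *Meg3* read 12.93, 13.12 and 13.61 in ESCs, 10.00, 10.74 and 12.01 in d5 Glow and 13.98, 13.96 and 15.21 in d6 G+H+. It fell by 2.31 ± 0.44 in d5 Glow (adjusted p = 0.000149) and by 1.98 in d4 G+ (adjusted p = 0.00099), and the groups did not overlap. The d4 G+ call was lost without ESC replicate 3 or d4 G+ replicate 1. *Mirg*, a host transcript of microRNAs, read 11.60, 11.95 and 11.90 in ESCs and 9.07, 9.71 and 10.34 in d5 Glow, and fell by 2.11 ± 0.33 (adjusted p = 6.96e-06). Over the 11 untreated group means *Meg3* and *Mirg* had a correlation of 0.91, while *Meg3* and *Dlk1* had one of -0.18.

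*Dio3*, a paternally expressed gene for the deiodinase that inactivates thyroid hormone, read 5.69, 5.14 and 5.36 in ESCs, where 2 of 3 arrays were above background. The d6 G+H+ arrays read 9.33, 9.28 and 7.40, higher by 3.27 ± 0.47 (adjusted p = 8.99e-07), and the d6 G+H- arrays 8.86, 8.25 and 6.96. Replicate 3 was the lowest at d6 in both, yet above every ESC array. The call in d3 G+ (1.73, adjusted p = 0.00693) was lost under 9 alternatives, namely slide as a fixed or random block, either change of background correction, and leaving out ESC replicate 1, 2 or 3 or d3 G+ replicate 1 or 3. *Dlk1*, a Notch ligand-like protein of preadipocytes, and *Rtl1*, derived from a retrotransposon, were called in 0 of the 10 comparisons.

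**Figure D3:**
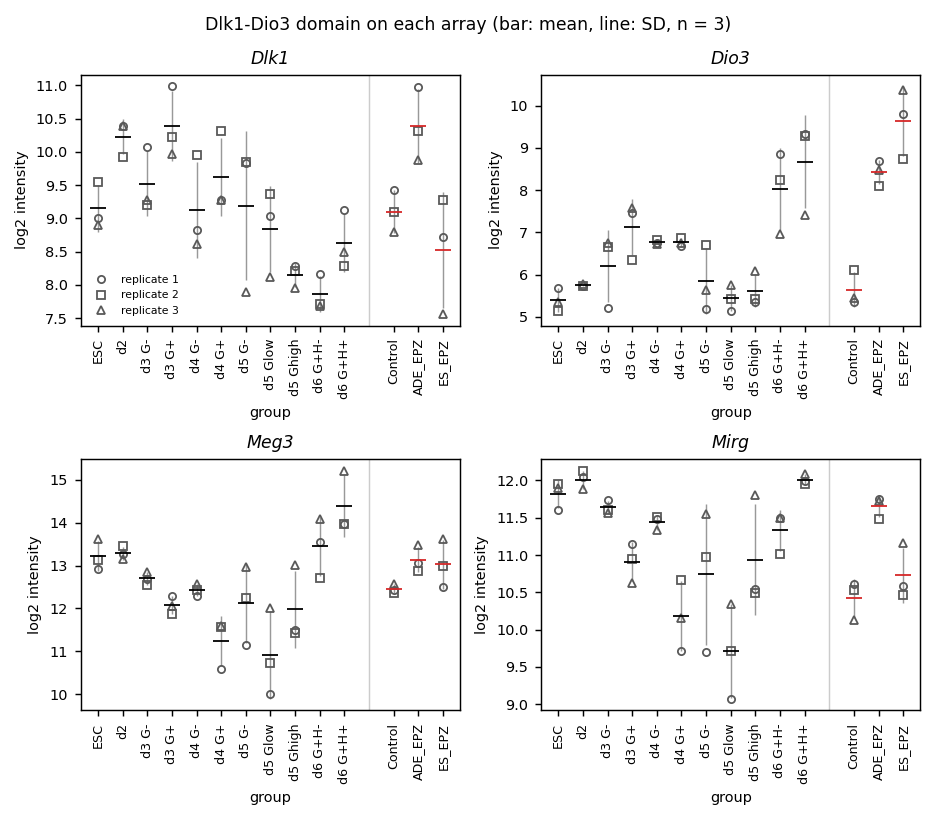
Log2 intensity of genes of the *Dlk1*-*Dio3* domain on each array (points, with the mean as a bar and the SD of 3 arrays as a line) by group, with the EPZ6438 series right of the grey line. *Meg3* and *Mirg* had their lowest means in d5 Glow, and *Dio3* was high in both d6 populations and in both EPZ6438 regimens, with 9.64 as its mean in ES_EPZ against 5.64 in Control.

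The *Kcnq1* cluster held members that moved in opposite directions. *Phlda2*, a maternally expressed gene that limits growth of the placenta, read 10.13, 10.23 and 10.01 in ESCs, 12.52, 12.07 and 12.58 in d4 G+ and 7.53, 7.85 and 7.39 in d6 G+H+. It was thus higher by 2.26 ± 0.47 at d4 (adjusted p = 0.000365) and then lower than ESCs by -2.53 (adjusted p = 5.06e-05), with no overlap of arrays. *Ascl2*, a maternally expressed transcription factor needed in trophoblast, had the mirror profile, with 9.09, 8.95 and 8.81 in ESCs, 7.31, 7.49 and 7.84 in d4 G+ and 10.66, 11.27 and 12.18 in d6 G+H+. It was called only at d6, where it was higher by 2.42 ± 0.44 (adjusted p = 5.03e-05), and its correlation with *Phlda2* was -0.87 over 11 group means. *Slc22a18*, a transporter gene, read 8.77, 8.19 and 8.36 in ESCs and 6.39, 6.79 and 6.27 in d3 G-, and fell by 1.95 ± 0.30 (adjusted p = 1.8e-05). It was called in 5 populations of d3 to d5, while *Kcnq1*, *Kcnq1ot1*, *Cd81* and *Tssc4* were called in 0.

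*Grb10* and its neighbour *Ddc* rose at d6. *Grb10* encodes an adaptor that dampens insulin and IGF receptor signalling, and *Ddc* the decarboxylase that makes dopamine and serotonin. *Grb10* read 9.19, 9.81 and 9.48 in ESCs and 14.12, 13.94 and 13.58 in d6 G+H+, higher by 4.38 ± 0.30 (adjusted p = 9.61e-14), the change with the smallest adjusted p of any member against ESCs. The d5 Ghigh arrays read 10.69, 10.78 and 11.96, and that call (1.65, adjusted p = 6.04e-05) was lost without replicate 3. *Ddc* read 9.83, 9.45 and 8.90 in ESCs, 8.17, 7.54 and 6.55 in d3 G+ and 12.09, 12.07 and 10.96 in d6 G+H+. It was first lower by -1.97 ± 0.40 (adjusted p = 0.000348) and then higher by 2.32 (adjusted p = 1.98e-05), with no overlap.

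*Magel2*, a paternally expressed gene of the Prader-Willi region whose protein works with ubiquitin ligases, was highest in GSC-negative cells. It read 7.85, 8.04 and 7.44 in ESCs, 9.73, 10.20 and 10.67 in d3 G- and 10.30, 10.02 and 10.27 in d4 G-, higher by 2.42 ± 0.36 in both (adjusted p = 1.3e-05 and 8.43e-06). At d6 it read 6.02, 7.19 and 6.37 in G+H+, below every ESC array, a difference of less than 1.5. *Ndn*, *Mkrn3*, *Snrpn* and *Ube3a* of the same region were called in 0 comparisons.

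*Slc22a2*, an organic cation transporter gene beside *Igf2r*, was detected in some populations. It was above background on 0 of 3 arrays in ESCs, d2, d5 Glow, d5 Ghigh and both d6 populations, and on all arrays of d3, d4 and d5 G-, the last of which read 5.83, 6.59 and 5.38. The ESC arrays read 4.83, 4.41 and 4.06 and the d3 G+ arrays 8.50, 6.74 and 7.08, at least 5.74-fold higher by these values (adjusted p = 9.12e-08). The call was kept under every alternative, with log2 changes of 1.84 to 5.22. *Igf2r*, the receptor that clears IGF2, and *Airn*, the antisense RNA that silences it, were called in 0 comparisons, and their means had a correlation of 0.88 over 11 groups. *Airn* read 7.10, 7.58 and 6.78 in ESCs and 8.73, 8.49 and 8.57 in d6 G+H+, higher by 1.44 with an adjusted p of 0.00141, just under the fold required.

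*H19* and *Igf2*, the first a maternally expressed noncoding RNA and the second a paternally expressed growth factor, varied more between replicates than almost any gene. Their pooled SDs over the groups, 1.22 and 1.15 on the log2 scale, were larger than those of 99.9% of genes, and both were called in 0 comparisons. *H19* read 10.87, 6.71 and 6.05 in ESCs and 9.20, 8.59 and 6.60 in d5 Glow. *Igf2* read 7.27, 8.56 and 6.51 in ESCs and 12.15, 10.59 and 8.62 in d5 Glow. Replicate 1 was the highest of the 3 *Igf2* arrays and replicate 3 the lowest in all 3 of the d5 populations. With the replicate number as a block *Igf2* was called in d5 G- (2.53), d5 Glow (3.01) and d6 G+H+ (2.30), with adjusted p of 0.00187, 0.000163 and 0.0022, although the numbers do not pair these arrays with those of ESCs throughout. With slide as a fixed block *Igf2* was called in the same populations (3.00, 3.66 and 2.74, adjusted p = 0.00246, 0.000393 and 0.00246). Slide as a random block gave these calls too. Both genes are described here because of their spread, which was seen before they were chosen.

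**Figure D4:**
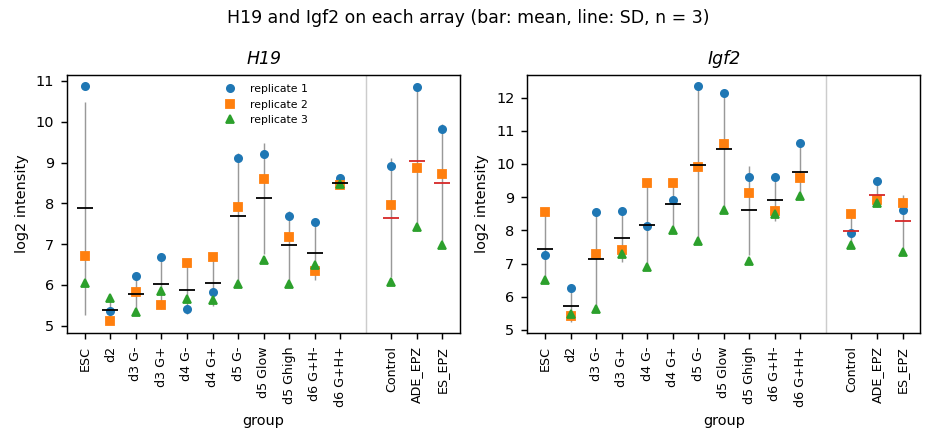
Log2 intensity of *H19* and *Igf2* on each array (points, with the mean as a bar and the SD of 3 arrays as a line) by group, with the EPZ6438 series right of the grey line. Arrays of 1 group lie far apart, as in ESCs, where *H19* read 10.87 on 1 array and 6.71 and 6.05 on the others.

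Among members outside these clusters, *Gnas* was higher and *Nnat* and *Impact* were lower. *Gnas*, which encodes the stimulatory G protein alpha subunit, read 13.38, 13.77 and 13.70 in ESCs and 15.35, 15.39 and 15.17 in d6 G+H+, higher by 1.69 ± 0.14 (adjusted p = 2.32e-11), a call that scaling by the 75th percentile in place of quantile normalisation ended, at a change just under the fold required. Dimmer *Gnas* probes for other transcripts, above background on 34 and 2 arrays, were not called there (0.38 and 0.10, adjusted p = 0.266 and 0.83). *Nnat*, a small membrane protein gene of the nervous system, read 9.76, 7.85 and 6.49 in ESCs and 6.16, 6.08 and 6.00 in d4 G+, lower by -1.95 ± 0.47 (adjusted p = 0.00198). ESC replicate 1 set this difference, and the calls of *Nnat* in d2, d3 G+ and d4 G+ were all lost without it. *Impact*, a regulator of translation under stress, was called in d6 G+H+ alone, with 13.82, 13.44 and 13.51 in ESCs and 11.76, 12.15 and 12.16 there, a change of -1.57 ± 0.19 (adjusted p = 3.87e-08) whose call was lost without ESC replicate 1 or d6 G+H+ replicate 1.

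Of the 4 listed H3K27me3-dependent genes, 3 fell and 1 rose. *Sfmbt2*, which encodes a Polycomb group protein, read 10.84, 12.26 and 11.34 in ESCs and 8.27, 7.71 and 8.98 in d6 G+H+, and fell by 3.16 ± 0.30 (adjusted p = 2.97e-10). *Gab1*, an adaptor of receptor tyrosine kinases, read 10.30, 10.54 and 10.69 in ESCs and 7.91, 8.05 and 8.30 in d4 G+, and fell by 2.43 ± 0.17 (adjusted p = 2.83e-13). Both were called lower in all GSC-positive populations with no overlap. The fall was not confined to these cells, since *Sfmbt2* was also called in d5 G- (-1.78). All arrays lay below those of ESCs for *Gab1* in the d3, d4 and d5 G- populations and for *Sfmbt2* in d4 and d5 G-. *Smoc1*, a secreted calcium-binding protein gene, read 9.24, 8.58 and 8.95 in ESCs and 6.72, 7.31 and 7.12 in d6 G+H+, and fell by 1.87 ± 0.24 (adjusted p = 8.85e-08). *Slc38a4*, an amino acid transporter gene, read 11.39, 11.70 and 11.72 in ESCs and 13.68, 13.21 and 12.73 in d5 Glow, higher by 1.60 ± 0.28 (adjusted p = 4.39e-05), and this call was lost without ESC replicate 1 or d5 Glow replicate 1.

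The sort for the *Gsc* reporter compared cells of 1 day. In d3 G+ against G- 4 members were called, 8.51% of the members beside 1.79% of all genes. *Peg3* was higher by 1.86 ± 0.30 (adjusted p = 7.4e-05), *Phlda2* by 2.55 (adjusted p = 0.000438) and *Asb4* by 3.79 (adjusted p = 1.58e-05), and *Sfmbt2* was lower by -1.67 (adjusted p = 0.000407). These 4 were called at d4 too, with *Mest* (2.02 ± 0.40, adjusted p = 0.00121), 5 members beside 2.25% of all genes. At d4 *Phlda2* read 12.52, 12.07 and 12.58 in G+ and 9.80, 9.16 and 9.44 in G-, and *Sfmbt2* 8.30, 8.86 and 9.01 in G+ and 10.50, 10.68 and 10.45 in G-, with no overlap. The change of the difference from d3 to d4 was called for 0 members, beside 0% of all genes, and 2 members had an unadjusted p under 0.05 beside 3.48% of all genes. The replicate numbers were treated as pairing the arrays of both days. With them as a block *Calcr*, the calcitonin receptor gene, was also called at d3 (-1.85, adjusted p = 0.00368). At d3 the G+ and G- arrays of replicate 2 shared a slide, as did those of replicate 3. Replicate number and slide cannot be told apart in these arrays. The calls of *Peg3* and *Mest* at d4 were lost without d4 G+ replicate 3, which left 3, that of *Mest* also without d4 G+ replicate 1, and that of *Sfmbt2* at d3 (-1.47) without d3 G- replicate 2.

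At d5 and d6 limma called 0 members between sorted populations. Of all genes 2.54% were called in d5 Ghigh against G-, 0.744% in d5 Glow against G-, 0.262% in d5 Ghigh against Glow and 0% in d6 G+H+ against G+H-. An unadjusted p under 0.05 was reached by 14 members in d5 Ghigh against G- (21.4% of all genes) and by 15 in d5 Glow against G- (14.2%). It was reached by 7 in d5 Ghigh against Glow (11.1%) and by 4 in d6 G+H+ against G+H- (5.98%). No slide held both d5 Ghigh and d5 Glow arrays. Replicate 1 of d5 G- stood nearer to the GSC-positive populations than the others, with *Asb4* at 10.86 beside 9.20 and 7.61. Without it *Asb4* (3.03), *Mest* (1.84) and *Snrpn* (-1.57), a splicing protein gene, were called in d5 Ghigh against G-, with adjusted p of 0.00022, 0.00325 and 0.00349. Likewise *Asb4* (2.99), *Mest* (1.98), *Zim1* (1.82) and *Mirg* (-1.55) were called in d5 Glow against G-, with adjusted p of 0.000601, 0.00261, 0.0019 and 0.00206.

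The EPZ6438 series asked what inhibition of PRC2, before or during differentiation, did to expression at day 6. In ADE_EPZ against Control 8 of 47 members were called (17.0%), beside 2.73% of all genes, 4 higher and 4 lower. In ES_EPZ against Control 3 were called (6.38%), beside 0.421% of all genes. All 3, *Dio3*, *Grb10* and *Magel2*, were also called in ADE_EPZ and in the same direction, and both comparisons share the Control arrays. Of the 17 maternally expressed members, 0 were higher and 2 lower in ADE_EPZ, and of the 25 paternally expressed ones 2 were higher and 2 lower. Since the members were chosen with earlier results of these data known, their shares may reflect that choice. Of 36 further imprinted genes, 1 was called in ADE_EPZ and 0 in ES_EPZ.

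*Dio3* had the largest change. It read 5.36, 6.11 and 5.45 in Control, with 2 of 3 arrays above background, 8.70, 8.11 and 8.47 in ADE_EPZ and 9.81, 8.74 and 10.37 in ES_EPZ. It was higher by 2.79 ± 0.47 in ADE_EPZ (adjusted p = 0.000104) and by 4.00 in ES_EPZ (adjusted p = 2.09e-05). *Grb10* read 11.76, 11.79 and 11.26 in Control, 13.13, 13.02 and 13.66 in ADE_EPZ and 13.28, 12.75 and 13.91 in ES_EPZ. All treated arrays lay above all Control arrays for both genes. The differences for *Grb10* were 1.67 ± 0.30 (adjusted p = 0.000206) and 1.71 (adjusted p = 0.00169).

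*Ddc*, beside *Grb10*, read 8.92, 9.27 and 8.34 in Control, 11.12, 11.09 and 10.93 in ADE_EPZ and 10.75, 10.10 and 11.23 in ES_EPZ. It was called in ADE_EPZ (2.20 ± 0.40, adjusted p = 0.000251). In ES_EPZ the difference of 1.85 had an adjusted p of 0.0109, and of 0.000523 with slide as a fixed block. *Nnat* read 5.41, 6.11 and 6.15 in Control, 8.18, 7.61 and 7.91 in ADE_EPZ and 6.16, 6.50 and 6.71 in ES_EPZ. Only in ADE_EPZ did it pass (2.01 ± 0.47, adjusted p = 0.00326), and the difference between the regimens, 1.45, did not (adjusted p = 0.182). The *Nnat* call was lost without Control replicate 1 or ADE_EPZ replicate 1 or 3.

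*Magel2* was lower with EPZ6438. Its arrays read 9.33, 8.65 and 9.18 in Control, 7.42, 7.96 and 6.66 in ADE_EPZ and 7.40, 7.63 and 6.63 in ES_EPZ, without overlap. The changes were -1.70 ± 0.36 (adjusted p = 0.00128) and -1.83 (adjusted p = 0.0053). The ADE_EPZ calls of *Magel2* and *Grb10* were lost without ADE_EPZ replicate 3 (-1.36 and 1.47) and their ES_EPZ calls without ES_EPZ replicate 3 (-1.54 and 1.41). Leaving out Control replicate 3 ended both *Grb10* calls and the ES_EPZ call of *Magel2*, and leaving out Control replicate 1 both *Magel2* calls. *Phlda2* read 11.02, 10.42 and 10.30 in Control, 8.64, 8.31 and 6.73 in ADE_EPZ and 9.88, 9.68 and 7.76 in ES_EPZ, and was lower by -2.69 ± 0.47 in ADE_EPZ (adjusted p = 0.000149) and by -1.47 in ES_EPZ (adjusted p = 0.101).

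*Usp29* and *Zim1* fell together. *Usp29* read 8.15, 8.18 and 8.45 in Control, 6.64, 6.43 and 6.63 in ADE_EPZ and 7.44, 7.94 and 6.81 in ES_EPZ. *Zim1* read 8.56, 7.88 and 8.56 in Control, 6.43, 6.31 and 5.83 in ADE_EPZ and 7.18, 7.72 and 6.17 in ES_EPZ. In ADE_EPZ they fell by 1.70 ± 0.26 (adjusted p = 2.87e-05) and 2.14 ± 0.37 (adjusted p = 0.000128). In ES_EPZ the changes of -0.86 and -1.31 did not pass (adjusted p = 0.0773 and 0.0548). *Peg3* itself changed by -1.22 ± 0.30 in ADE_EPZ, with an adjusted p of 0.0053 and a size under the fold required.

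Each of the 3 slides of the series held 1 array of every regimen. On all 3 slides every one of the 11 calls had the same direction, and all 11 kept their call with slide as a fixed block. For *Dio3* the differences within slides were 2.36, 3.25 and 2.75 in ADE_EPZ and 4.26, 4.36 and 3.38 in ES_EPZ. No slide held both series, so Control and the untreated d6 cells cannot be told apart from their slides and were not tested against each other. Set beside the untreated series, the 8 members had the sign of the d6 G+H+ minus d5 Ghigh difference in ADE_EPZ against Control, with 3.05 for *Dio3*, 2.74 for *Grb10*, 2.72 for *Ddc* and 1.51 for *Nnat*, and with -3.33 for *Phlda2*, -2.17 for *Magel2*, -0.89 for *Zim1* and -0.76 for *Usp29*. These are values beside each other, with no test, and the *Zim1* arrays of d5 Ghigh and d6 G+H+ overlapped. The share of all genes with the same sign was not computed, so the agreement is not a result about imprinted genes. For genes in aggregate, the paper describes the EPZ6438 change as enhancing that between untreated Ghigh and G+H+ cells.

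**Figure D5:**
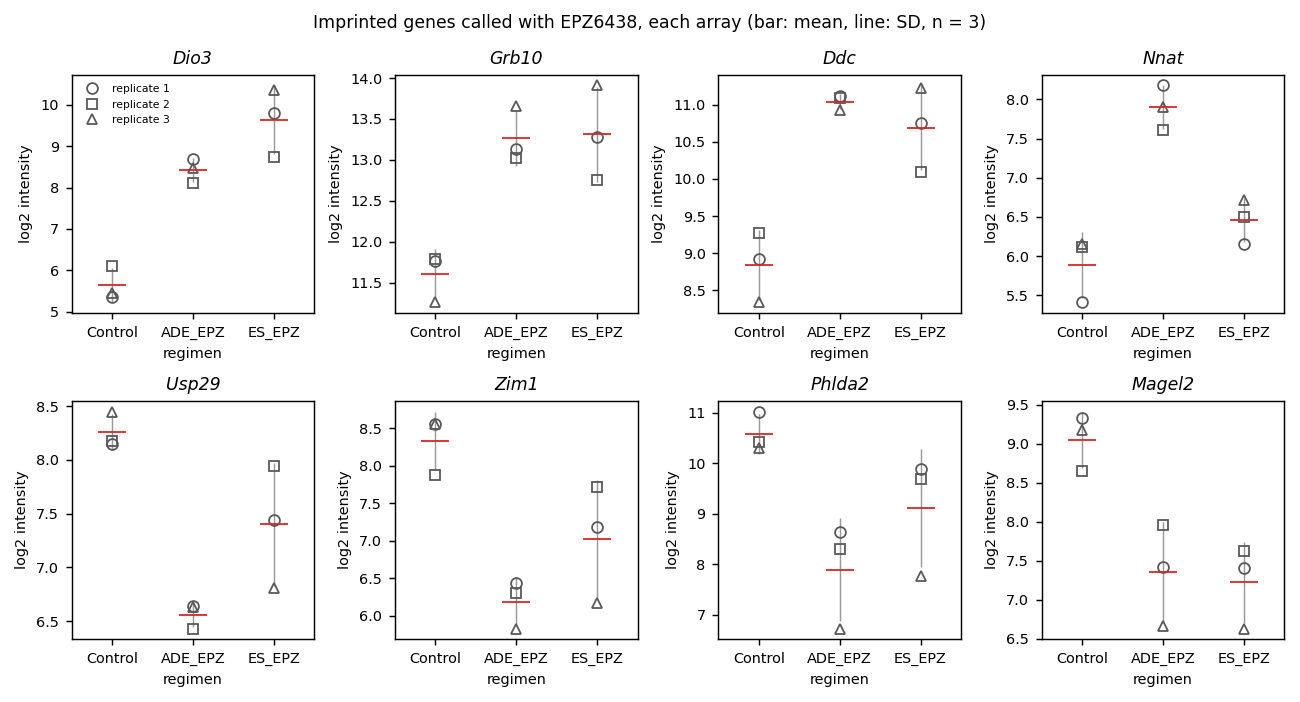
Log2 intensity on each array (points, with the mean as a bar and the SD of 3 arrays as a line) in Control, ADE_EPZ and ES_EPZ for the 8 imprinted genes called with EPZ6438. *Dio3*, *Grb10*, *Ddc* and *Nnat* were higher in ADE_EPZ, and *Usp29*, *Zim1*, *Phlda2* and *Magel2* lower, with no overlap with Control.

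Between the 2 regimens, ADE_EPZ against ES_EPZ, limma called 0 members, beside 0.126% of all genes, and 10 had an unadjusted p under 0.05, beside 12.9% of all genes. *Dlk1* read 10.98, 10.31 and 9.87 in ADE_EPZ and 8.72, 9.27 and 7.56 in ES_EPZ, without overlap, a difference of 1.87 ± 0.45 (adjusted p = 0.036). With the replicate number as a block *Dlk1* was called (adjusted p = 0.00517). Same-numbered arrays of these 2 regimens also shared a slide, so replicate number and slide cannot be told apart here.

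The 4 listed H3K27me3-dependent genes were called in 0 of the EPZ6438 comparisons. Their name refers to the imprint from the oocyte, and whether they carried H3K27me3 in these cells was not tested. *Sfmbt2* read 8.13, 8.02 and 8.09 in Control and 9.11, 8.87 and 8.78 in ADE_EPZ, a difference of 0.84 ± 0.30 with an adjusted p of 0.076. In ADE_EPZ *Gab1* differed by 0.13, *Smoc1* by -0.17 and *Slc38a4* by -0.30. In ES_EPZ *Sfmbt2* differed by 0.09 and *Gab1* by 0.26, while *Slc38a4* (-0.80, adjusted p = 0.151) and *Smoc1* (-0.54, adjusted p = 0.304) read lower on every array than in Control. Of all 47 members 22 had an unadjusted p under 0.05 in ADE_EPZ, beside 30.6% of all genes, and 12 in ES_EPZ, beside 18.7%.

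Marker genes of cell types moved in the same comparison. The mean of the 4 endoderm markers (*Sox17*, *Foxa2*, *Cer1* and *Hhex*) per array was 11.64 to 12.20 in Control, 13.18 to 13.49 in ADE_EPZ and 12.68 to 13.06 in ES_EPZ, and 1 of the 4, *Hhex*, was called in ADE_EPZ. The 4 primitive streak markers (*T*, *Eomes*, *Mixl1* and *Gsc*) had means of 10.28 to 10.46, 9.18 to 9.44 and 9.80 to 10.11, and *Mixl1* was lower in both regimens. They did not all fall, since the single streak markers changed by -3.34 to 0.99 in ADE_EPZ and by -1.72 to 0.79 in ES_EPZ. The 4 mesoderm markers (*Kdr*, *Pdgfra*, *Foxf1* and *Meox1*) had means of 9.71 to 10.00, 8.44 to 8.85 and 8.67 to 9.21, and *Meox1* was lower in ADE_EPZ. Single mesoderm markers changed by -2.44 to 0.01 in ADE_EPZ and by -1.67 to 0.33 in ES_EPZ. Of the 4 ESC and epiblast markers, 1, *Zfp42*, was higher in ADE_EPZ, and 0 of the neural, trophoblast and visceral endoderm markers were called. The part of these markers in the results was not tested.

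Of 38 further imprinted genes, 36 were measured, and 1 was called in ADE_EPZ (2.73% of all genes) and 0 in ES_EPZ (0.421%). *Osbpl5*, an oxysterol-binding protein gene of the *Kcnq1* cluster, read 10.51, 10.67 and 10.26 in Control and 11.73, 12.15 and 12.37 in ADE_EPZ, higher by 1.61 ± 0.37 (adjusted p = 0.00321). In d6 G+H+ against ESCs 3 of the 36 were higher and 4 lower, beside 11.0% of all genes called. *Ano1*, a chloride channel gene, read 6.21, 5.75 and 5.64 in ESCs and 10.54, 10.22 and 10.95 in d6 G+H+, higher by 4.70 ± 0.55 (adjusted p = 2.06e-08). *Jade1*, a gene for a subunit of a histone acetyltransferase complex, read 12.84, 12.47 and 12.89 and then 7.96, 8.36 and 9.32, and fell by 4.19 ± 0.29 (adjusted p = 1.52e-13). *Cobl*, an actin nucleator gene beside *Grb10*, was lowest in d5 Glow (5.48, 6.97 and 8.08, against 11.35, 10.59 and 11.16 in ESCs), where it fell by 4.19 ± 0.41 (adjusted p = 7.38e-10). *Cdkn1c*, a cell cycle inhibitor gene, was called in d3 G+ alone (1.81, adjusted p = 0.00562).

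Of 8 factors that keep imprints, 0 were called in either EPZ6438 regimen. *Dppa3*, which protects methylation in the early embryo, read 10.37, 8.76 and 7.58 in ESCs and 4.56, 4.97 and 5.28 in d6 G+H+, where 1 of 3 arrays was above background, and fell by 3.97 ± 0.57 (adjusted p = 1.01e-06). It was lower in G+ than in G- cells at d3 (-2.60, adjusted p = 0.00369) and d4 (-3.38, adjusted p = 0.000167). *Zfp57* was lower in the 3 GSC-negative populations, by -2.26 ± 0.31 in d4 G- (adjusted p = 2.34e-06). *Smchd1*, a chromatin protein gene, was higher in d6 G+H+ by 1.63 (adjusted p = 8.9e-05), and *Trim28*, the corepressor that ZFP57 recruits, ran from 14.68 in d2 to 13.33 in d6 G+H+ and was called in 0 comparisons.

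The remaining 24 members were called in 0 comparisons. In 21 members with more than 1 probe, a probe with a called change opposite in sign to that of the brightest one occurred for *Plagl1* alone. *Plagl1*, a zinc finger growth regulator gene, lay between 6.22 and 6.57 by its brightest probe in all 14 groups. The third probe of *Plagl1* read 10.71, 6.25 and 6.15 in ESCs and 5.09, 5.03 and 5.15 in d6 G+H+, and the fourth 10.41, 6.07 and 5.78 and then 4.69, 4.64 and 5.45, so that ESC replicate 1 stood far above the other ESC arrays on both. ESC replicate 1 was also the highest ESC array for *H19*, *Nnat*, *Mest* and *Dppa3*. Several never-called members were nearly level, with *Tssc4* between 11.08 and 11.61, *Mkrn3* between 7.02 and 7.58, *Ube3a* between 9.08 and 9.62, *Zrsr1* between 9.13 and 9.59 and *Blcap* between 10.17 and 10.83 over the 14 group means.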

How the data were processed

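Values were the log2 intensities that the authors deposited, made from median spot intensity by normexp background correction (offset 10) and quantile normalisation with limma. The deposited scanner files, in intensity units, gave the background marks and a recomputation, whose correlation with the deposited log2 values was 0.999979 or more on every array. Spots of a probe were averaged, giving 55681 probes, of which 28357 had a symbol (21384 genes) through RefSeq accessions in the files and a table of GRCm38.p6 used for names and upstream sequences. *Meg3* and *H19* were named only by the newer annotation, that of the EPZ6438 arrays. Column medians were 5.49 to 5.53. Between 25887 and 40398 probes were above background on an untreated array, and between 24459 and 34789 on an EPZ6438 array. The number of arrays, 3 per group, limits the precision.

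With limma 3.58.1 in R 4.3.3, 1 mean per group was fitted over 42 arrays and its standard errors were moderated. Benjamini-Hochberg adjustment ran over every probe within a comparison, and the brightest probe stood for a gene. With 3 arrays against 3 the smallest permutation p is 0.1. The members and lists were chosen with earlier results of these data known. Genes named with array values are the 8 called with EPZ6438, the 14 further called members with the widest range of untreated means, and of the other lists those called with EPZ6438 and up to 4 with the widest range. *H19*, *Igf2*, *Dlk1*, *Airn*, *Plagl1*, *Impact*, *Calcr* and *Snrpn* were added after their values were seen. Replicate numbers, taken from the labels, were treated as pairing arrays where the deviations of every same-numbered pair correlated above 0.1, as for d3 G+ and G- (0.253 to 0.674), d4 G+ and G- (0.206 to 0.468) and ADE_EPZ and ES_EPZ (0.219 to 0.301), and not for ADE_EPZ and Control (0.073 to 0.171) or ES_EPZ and Control (-0.064 to 0.142). Same-numbered arrays of ADE_EPZ and ES_EPZ also shared a slide, so their correlation cannot tell a replicate from a slide. The same holds for replicates 2 and 3 of d3 G+ and G-. The alternatives were another offset, the 75th percentile as the scale, uncorrected values, normalisation within each series, fits to fewer arrays, slide or replicate number as a block (statmod 1.5.0), a filter on dim probes, any probe of a gene, a wider threshold and leaving out each array. The procedure was tested on simulated data.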

Additional observations from a re-analysis of the deposited data

Results flagged for a closer look

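*Dlk1* differed between the EPZ6438 regimens, by 1.87 on the log2 scale in ADE_EPZ against ES_EPZ, which is the test of the difference itself (limma adjusted p = 0.036). It passed an adjusted p of 0.05 but not the call rule, and it was called with slide or replicate number as a block. Slide and replicate number coincide for these arrays.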

How the results depend on the processing

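Of 103 single calls of members, 0 changed sign under any alternative. The calls that no longer passed numbered 17 with a normexp offset of 50, 13 with no background correction, 21 with only the compared groups in the fit, 5 with scaling by the 75th percentile, 5 with 1 series in the fit, 3 with slide as a fixed block, 1 with slide as a random block and 0 with the replicate block. Scaling by the 75th percentile moved the median change of all genes by up to 0.13 on the log2 scale. Members dim in 1 group, such as *Usp29*, *Zim1* and *Slc22a2*, had changes set in part by the background correction.

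With an adjusted p of at most 0.05 and no fold threshold, the member counts became 23 for d6 G+H+ against ESCs, 8 for d3 G+ against G-, 11 for d4 G+ against G-, 8 for d5 Ghigh against G-, 4 for d5 Glow against G- and 1 for ADE_EPZ against ES_EPZ, and 35 for at least 1 ADE population and 36 for at least 1 comparison. ADE_EPZ against Control had 5 with an offset of 50. Fitting only the compared groups gave 2 for d3 G+ against G- and 0 for ES_EPZ against Control, which had 1 with scaling by the 75th percentile and 1 with 1 series in the fit. The d5 Ghigh against G- count was 1 with scaling by the 75th percentile, slide as a random block, the replicate block, the filter on dim probes, or any probe. ADE_EPZ against ES_EPZ had 1 with slide as a fixed or random block and 1 with the replicate block. With the replicate block the other comparison counts stayed within 1.5 times.

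Leaving out 1 array gave 12 to 14 members for d6 G+H+ against ESCs, 3 to 5 for d3 G+ against G-, 3 to 6 for d4 G+ against G-, 0 to 3 for d5 Ghigh against G-, 0 to 4 for d5 Glow against G-, 5 to 8 for ADE_EPZ against Control (5 without ADE_EPZ replicate 3), 1 to 4 for ES_EPZ against Control (1 without Control replicate 3 or ES_EPZ replicate 3), 21 to 26 for at least 1 ADE population and 22 to 26 for at least 1 comparison. The d5 Ghigh against G- count was 3 without d5 G- replicate 1, 2 without d5 Ghigh replicate 3 and 1 without d5 Glow replicate 1 or 3, and the d5 Glow against G- count 4 without d5 G- replicate 1 and 1 without d5 Glow replicate 3. The counts for d5 Ghigh against Glow, d6 G+H+ against G+H-, ADE_EPZ against ES_EPZ and the change from d3 to d4 stayed at 0. The cause of these differences was not tested.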
